A study of Schizosaccharomyces pombe with 8 samples.

Results

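Transcript levels were compared directly between a fission yeast strain labelled as a disruptant of pka1 and a disruptant of ppt1, on 4 of the 8 arrays of the series. The organism is Schizosaccharomyces pombe, and the arrays are 1-colour NimbleGen gene expression arrays. All 4 arrays that the labels assign to these strains were used, 2 per strain, each from its own culture. The pka1 strain is YMP37 (pka1::ura4) and the ppt1 strain is OG1 (ppt1::kanMX6). Both are h+ and share leu1-32 and ura4-D18 with their parent PR110, so the pka1 strain alone has a working ura4 of the pair. Cultures of 50 mL in the rich medium YES grew with rotation at 30 °C, and RNA was taken after 8 hours, in logarithmic growth. Each genotype is represented by 1 strain. The 2 wild-type arrays and the 2 arrays of the cgs1 disruptant YMP41 (cgs1::ura4) are given beside the comparison as reference levels.

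As background, the product of pka1 is the catalytic part of the cAMP-regulated kinase PKA. In fission yeast this kinase is active when glucose is plentiful, and it holds down genes for the use of other carbon sources, for mating and for stress. The ppt1 of this series (SPAC56F8.04c, also called coq2) encodes p-hydroxybenzoate polyprenyltransferase, which joins the ring and the isoprenoid tail of coenzyme Q. Coenzyme Q carries electrons to complex III of the respiratory chain and takes them from several dehydrogenases, among them a sulfide oxidising enzyme and the dihydroorotate dehydrogenase of uracil synthesis. The direct comparison therefore sets loss of a kinase against loss of coenzyme Q, with the ura4 marker as a further difference.

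Array signal is a gene-level intensity on a linear scale. The median signal was 21356 and 25039 on the arrays labelled Δpka1 (slide 1 and slide 2, in this order throughout) and 21580 and 24677 on those of Δppt1. Since every replicate number stands for 1 slide that holds all strains, the comparison was made within slides. A log2 difference below is always the arrays labelled Δpka1 minus Δppt1, from limma with slide as a block, with its standard error (SE) and a p adjusted over 4940 genes. A gene was called where the adjusted p was below 0.05. The array background was taken as 2497, the highest signal of ppt1, cgs1 or ura4 in a strain that lacks it (pka1, which did not read low, was left out). This is the signal of ppt1 in Δppt1 on slide 1, so ppt1 counts as background there by definition. A fold against a strain at or below this limit on both arrays is given as "at least". Signals within 10% of the highest value of 65239 are compressed, which held for 470 genes (9.51%) in either strain.

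The targeted genes were read first. On the arrays labelled Δpka1, ppt1 read 29176 and 35838, and in Δppt1 it read 2497 and 1910, at least 12.9-fold higher (log2 difference 3.89, SE 0.19, adjusted p = 0.000186). Wild type read 32691 and 41517, close to the arrays labelled Δpka1, so this gene goes with the label of OG1. The marker ura4, an enzyme gene of uracil synthesis, read 32716 and 37383 where pka1 is the labelled target and 1307 and 1000 where ppt1 is, at least 14-fold higher (4.93, SE 0.16, adjusted p = 7.93e-05). Signal for pka1 itself read 38387 and 46832 on the arrays labelled Δpka1 and 28350 and 30386 in Δppt1 (0.53, SE 0.06, adjusted p = 0.00236). It was therefore higher, not lower, in the strain that should lack it, although the call is lost without the slide block (adjusted p = 0.0936). The sources used here do not give which part of pka1 the probes cover. These are called "the arrays labelled Δpka1" for that reason, and each direction rests on that label together with ura4 and cgs1. Signal for ura4 was also high in Δcgs1 (39913 and 44787). In that strain cgs1 read 1404 and 1360, against 46361 and 54252 on the arrays labelled Δpka1. The phosphatase gene SPBC3F6.01c, whose older name is also ppt1, read 34903 and 39985 against 34602 and 40542 and was not called (95% interval of the log2 difference from -0.10 to 0.09). The gene leu1, mutant in both strains, read 50527 and 56203 against 53026 and 61155 and was not called either (adjusted p = 0.176).

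**Figure D1:**
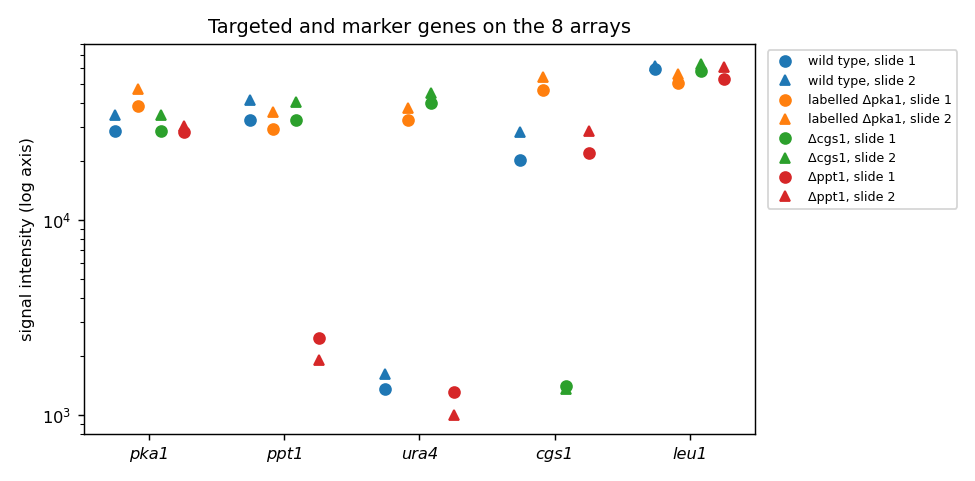
Signal intensity (log axis) of the targeted and marker genes on each of the 8 arrays, by strain (colour) and slide (circle, slide 1; triangle, slide 2). Signal for ppt1 is lowest in Δppt1 and ura4 is high on the arrays labelled Δpka1 and in Δcgs1, while pka1 is not low on the arrays labelled Δpka1.

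The strains were called different and at least 2-fold apart at 200 of 4940 genes tested (4.05%). Of these, 138 were higher on the arrays labelled Δpka1 (2.79%) and 62 were lower (1.26%). A 4-fold difference was reached by 43 called genes above and 17 below. With no size limit, 1903 genes were called (38.5%), 795 of them higher (16.1%) and 1108 lower (22.4%). The excess of falls was lost after cyclic loess normalization, with 1161 higher and 1156 lower. It was kept with matched medians (868 higher, 1237 lower) and with quantile normalization (991 higher, 1344 lower). Small differences dominated, since 1703 of the calls (89.5%) stayed under 2-fold. Without the slide block 474 genes were called (9.6%), 249 higher (5.04%) and 225 lower (4.55%), and they included 199 of the 200 genes at 2-fold. For all 200 genes the 4 arrays did not overlap between strains, which held for 46% of all genes. The difference also had the same sign on both slides for each of the 200, as it did for 3813 of the 4940 genes. In 33 of the 200, a strain lay at background, and for 11 the assured fold was then under 2. Across genes, which are not independent replicates, replicate arrays correlated with r = 0.993 (labelled Δpka1) and 0.991 (Δppt1), and the strains with each other with 0.920 on slide 1 and 0.917 on slide 2.

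**Figure D2:**
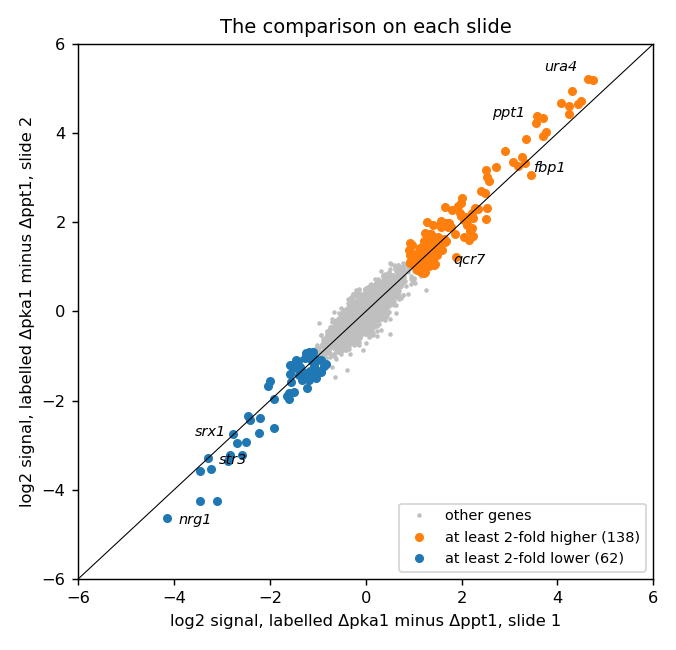
Log2 signal of the arrays labelled Δpka1 minus Δppt1 on slide 1 (horizontal axis) and slide 2 (vertical axis), 1 point per gene, with the line of equality. The 138 genes called at least 2-fold higher and the 62 called at least 2-fold lower all keep their sign on both slides.

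Wild-type levels show which strain stands apart at these genes. Of the 138 higher genes, the wild-type mean lay nearer to Δppt1 for 118 and nearer to the arrays labelled Δpka1 for 20. Of the 62 lower genes, it lay nearer to Δppt1 for 42 and nearer to the arrays labelled Δpka1 for 20. These are counts of log2 levels with no test, and the same 2 wild-type arrays serve every gene. The groups of genes described below divide along this line. For called genes of carbon source use, mating and uracil salvage, wild type mainly lay near Δppt1. For those of respiration and iron uptake it mainly lay near the arrays labelled Δpka1. The share over all 1903 called genes is not given here, so the list counts below stand without it.

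Among genes with a symbol, the 12 largest fitted rises are given without a ranking, since levels at background or near the top of the scale have no order. The enolase gene eno102 stood at 57358 and 62059 on the arrays labelled Δpka1 and 2130 and 1703 in Δppt1 (at least 23.9-fold, 4.97, SE 0.16). The group also held ura4, and lsd90 at 54260 and 58733 against 2420 and 2213 (at least 22.6-fold, 4.61, SE 0.15). In both genes the strains were far apart and wild type was low (1839 and 2401 for eno102, 2743 and 3892 for lsd90). The meiotically upregulated gene mug14 differed by 4.54 (SE 0.17), hry1 by 4.38 (at least 7.91-fold) and mel1, an α-galactosidase gene, by 4.01 (at least 10.0-fold). The spore wall gene isp3 differed by 3.98 (SE 0.21), the deleted ppt1 by 3.89, ddr48 by 3.81 and mei2, a regulator of meiosis, by 3.60. The gluconeogenic gene fbp1 (3.36, SE 0.10) and ssd2 (3.33, SE 0.13) completed the group. Their adjusted p lay between 7.93e-05 and 0.000227. For eno102, mug14, ddr48, fbp1 and ssd2 the upper level lay within 10% of the highest value, so the folds are compressed.

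The largest falls had a different mix of origins. The gene nrg1 (SPBPB2B2.01) read 1975 and 1611 on the arrays labelled Δpka1 and 34830 and 40209 in Δppt1 (at least 15.0-fold lower, -4.39, SE 0.13). Wild type lay between them at 14541 and 16982, so each strain departed from it in its own direction. The gene gdt1 (SPAC186.05c) read 3273 and 2007 against 28016 and 38463 (-3.68, SE 0.30), with wild type at the level of Δppt1 (26029 and 35458). The opposite held for str3, of the siderophore transporter family, at 5345 and 5725 against 52509 and 56377 (-3.30, SE 0.15), with wild type at 4320 and 5768. The gene alr2 behaved like str3, with 3959 and 3873 against 28262 and 35902 and wild type at 3625 and 5138 (-3.02, SE 0.14). The group of 12 went on with srx1 (-2.82), met17 (-2.77), shu1 (-2.72, at least 4.18-fold), aes1 (-2.43), osr1 (-2.39), caf5 (-2.29), the iron permease gene fip1 (-1.86) and the flocculin gene pfl3 (-1.78). Their adjusted p lay between 7.93e-05 and 0.000816.

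Genes without a symbol made up 42 of the 138 higher and 27 of the 62 lower genes. The largest of them were SPAC22A12.17c (4.62, SE 0.20, at least 20.7-fold), SPCC1739.08c (4.43, SE 0.15) and SPAC869.09 (4.33, SE 0.12, with Δppt1 at background) above, and SPBPB2B2.05 (-3.86, SE 0.25, at least 7.09-fold), SPAC1039.02 (-3.51, SE 0.07) and SPBPB10D8.01 (-3.38, SE 0.11) below. SPAC1039.02 read 5729 and 5260 on the arrays labelled Δpka1 against 62737 and 62683 in Δppt1, near the wild-type signal of 59388 and 63482. Here the arrays labelled Δpka1 alone were low. The upper levels of SPAC1039.02 and SPCC1739.08c lay near the highest value, so both folds are compressed. Probe sequences were not used here, so signal shared between near-identical gene copies was not tested.

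Genes that glucose represses were the list with the highest median. Of 23 measured members, 16 were called higher on the arrays labelled Δpka1 and 1 lower (73.9% called, against 38.5% of all genes), with a median log2 difference of 1.08 against -0.02 over all genes. At least 2-fold differences made up 13 of the 16 and the single fall. For fbp1, which encodes fructose-1,6-bisphosphatase, the arrays read 59398 and 64880 against 6168 and 5925 in Δppt1. Wild type was close to Δppt1 at 6964 and 9053. The hexose transporter gene ght3 read 19668 and 21272 against 3403 and 2627 (2.77, SE 0.14, adjusted p = 0.000192). Its wild-type signal of 1654 and 1712 was below both strains. A second hexose transporter gene, ght1, read 49619 and 53463 against 8557 and 10697 (2.43, SE 0.08). The glycerol dehydrogenase gene gld1 read 55956 and 61999 against 11555 and 12347 (2.30, SE 0.04), and wild type lay between at 17541 and 20130. In all 17 called members, wild type lay nearer to Δppt1.

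Within glycolysis and fermentation the differences fell on alternative isoenzymes. Of 20 members, 4 were higher and 2 lower (30% called, median 0.00), and 16 lay near the highest value, so that differences are compressed. Beside eno102, the pyruvate decarboxylase genes pdc201 (42645 and 53072 against 7158 and 6961, 2.75, SE 0.09) and pdc202 (11198 and 13901 against 4319 and 5131, 1.41, SE 0.06) were higher. The glyceraldehyde-3-phosphate dehydrogenase gene gpd3 was also called higher (0.64, SE 0.11, adjusted p = 0.0102, and 0.0724 without the slide block). Another decarboxylase gene, pdc102, read 1312 and 1027 against 2668 and 2577, lower by a log2 difference of -1.18, of which only 1.05-fold is assured above background.

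Upstream signalling genes had smaller differences. Of 19 genes of PKA and glucose signalling, 9 were higher and 3 lower (63.2% called, median 0.11), or 2 and 1 without the slide block. The 9 include pka1 itself, the labelled target, whose signal was not low where it should be absent. The regulatory subunit gene cgs1 read 46361 and 54252 against 21968 and 28540 (1.00, SE 0.13, adjusted p = 0.00355). The glucose receptor gene git3 read 44180 and 50148 against 21439 and 25255 (1.02, SE 0.06), and git5, its G protein β subunit, differed by 0.68 (SE 0.07, adjusted p = 0.00169, and 0.127 without the block). For both receptor and subunit the arrays labelled Δpka1 were the higher strain on each slide. The gene git7 was lower (-0.44, SE 0.07).

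The mating genes that were called were all higher on the arrays labelled Δpka1. Of 30 members, 18 were higher and 0 lower (60% called, median 0.64), 9 of them at least 2-fold, and 15 were also called without the slide block. Wild type lay nearer to Δppt1 in all 18. The gene ste11, whose product activates transcription of mating and meiotic genes, read 50680 and 55805 against 11223 and 15919 (1.99, SE 0.10), with wild type between at 19746 and 23706. Its target mei2 read 59554 and 57790 against 5852 and 3980 (adjusted p = 0.000145), and wild type read 8875 and 9788. The pheromone precursor gene map2 read 20398 and 22915 against 3571 and 2552 (2.84, SE 0.19), and map1, a regulator of P-cell genes, differed by 2.09 (at least 4.05-fold). The signal regulator gene rgs1 differed by 1.80 (SE 0.11). In a culture, a rise in every cell and a rise in a share of the cells cannot be told apart.

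Genes specific to each mating type were also looked at. Both strains are labelled h+, so a difference between them cannot check the mating type. Of 4 P-cell-specific genes, 3 were higher (75% called), namely map2, the M-factor receptor gene map3 (0.94, SE 0.09) and the adhesin gene map4 (0.66, SE 0.09, adjusted p = 0.00376, and 0.121 without the block). Of 7 M-cell-specific genes 1 was called (14.3%), mam3 at 0.70 (SE 0.08). It read 21899 and 21398 against 12213 and 14498, and 13272 and 15058 in wild type, so its signal was above background in each of these strains. Genes of meiosis and sporulation did not follow the mating list, with 4 of 29 higher and 5 lower (31% called, median -0.05). Beside isp3, the named calls were falls, in spo14 (-0.92, SE 0.05), mcp7 (-0.70, at least 1.47-fold), spo4 (-0.49) and the recombinase gene dmc1 (-0.46, adjusted p = 0.00398, and 0.228 without the block).

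**Figure D3:**
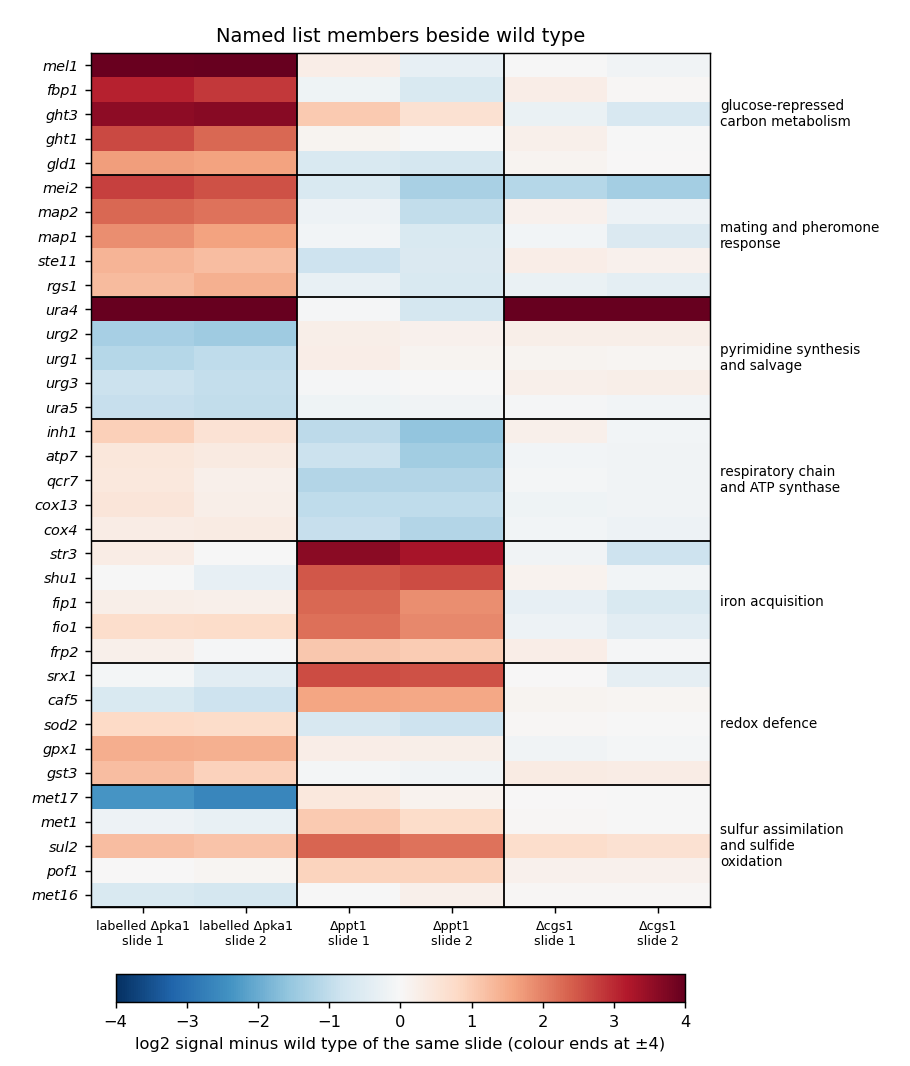
Log2 signal of each disruptant array minus the wild-type array of the same slide (colour, ending at ±4), for the 5 called members with the largest difference in each of 7 lists. Glucose-repressed, mating and uracil genes are coloured mainly on the arrays labelled Δpka1, save ura4, which is as strongly coloured in Δcgs1. Respiratory and iron genes are coloured mainly in Δppt1, and the last 2 lists hold genes of both kinds.

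The marker difference makes uracil genes of interest. Of 14 genes of pyrimidine synthesis and salvage, ura4 alone was higher and 9 were lower on the arrays labelled Δpka1 (71.4% called, median -0.36), or 1 and 3 without the slide block. The uracil-regulated gene urg2 read 14117 and 17379 against 41444 and 52423 (-1.57, SE 0.04, adjusted p = 7.93e-05), with wild type at 35456 and 46327. Its relatives urg1 (-1.26, SE 0.07) and urg3 (-0.86, SE 0.05, adjusted p = 0.000307, and 0.0782 without the block) were lower too. The orotate phosphoribosyltransferase gene ura5 read 17759 and 20228 against 30047 and 35895 (-0.79, SE 0.04). Smaller falls were found in uck2 (-0.43), urk1 (-0.42), dcd1 (-0.42), ura6 (-0.29) and ura2 (-0.22), none of them called without the block. The genes ura1, ura3 and fur4 lay near the highest value and were not called, nor was dut1 (-0.21). The median of the list against wild type was -0.33 on the arrays labelled Δpka1, -0.01 in Δppt1 and 0.02 in Δcgs1, which carries the same ura4 marker. The marker and the loss of the kinase cannot be told apart in the direct comparison. In Δcgs1, urg2 read 41360 and 54197 and ura5 32576 and 36536. On each slide urg2 was thus above wild type in Δcgs1 and ura5 slightly below it.

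Respiratory genes were the list that most often passed the test. Of 34 measured respiratory chain and ATP synthase genes, 25 were higher on the arrays labelled Δpka1 and 1 was lower (76.5% called, median 0.78), 11 of them at least 2-fold. Without the slide block 19 were called higher and 0 lower. Of the 26 called members, wild type lay nearer to the arrays labelled Δpka1 in 24. The list median against wild type was 0.17 for the arrays labelled Δpka1 and -0.56 for Δppt1, so that most of the difference lay on the side of Δppt1.

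The calls were spread over complexes III and IV and ATP synthase. All 9 measured genes of complex III, which takes electrons from coenzyme Q, were higher (log2 differences from 0.27 to 1.49). Of 6 genes of complex IV (cytochrome c oxidase), 5 were higher, and of 15 genes of ATP synthase, its assembly factors and its inhibitor, 10 were higher and 1 lower. Of 3 genes of complex II (succinate dehydrogenase) in the list, 1 was higher. The split by complex was made with the values known and was not tested. The complex III subunit gene qcr7 read 45431 and 54256 against 15009 and 20857 in Δppt1 (1.49, SE 0.06, adjusted p = 0.000136). Wild type read 33924 and 46723. The complex IV subunit genes cox13 (40683 and 44316 against 14572 and 18527, 1.37, SE 0.07) and cox4 (24720 and 33900 against 10510 and 12009, 1.37, SE 0.07) showed the same order, Δppt1 lowest. So did the ATP synthase gene atp7, at 21477 and 26114 against 8668 and 7840 (1.52, SE 0.14), with wild type at 15664 and 20519. The ATPase inhibitor gene inh1 differed most, at 9653 and 9289 against 2431 and 2102 (2.07, SE 0.12, at least 3.79-fold). The ATP synthase subunit genes atp1 and atp2 lay near the highest value and were not called.

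Few other genes of coenzyme Q synthesis were called. Of 15 members 4 were higher and 0 lower (26.7% called, against 38.5% of all genes, median 0.01). The 4 include ppt1 itself, the disrupted gene, whose call follows from the choice of strains. It was also the single gene beyond 2-fold. The hydroxylase gene coq6 read 36691 and 43360 against 28471 and 30088 (0.45, SE 0.05, adjusted p = 0.00274). The gene coq11 differed by 0.39 (SE 0.08) and the methyltransferase gene coq3 by 0.17 (SE 0.04). None of these 3 was called without the slide block. The other 11 members (dps1, dlp1, coq4, coq5, coq7, coq8, coq9, coq10, coq12, arh1 and etp1) had differences from -0.27 to 0.25, and the 95% intervals of these differences lay between -0.55 and 0.47. A difference of 2-fold lies outside each of these intervals.

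Among dehydrogenases that pass electrons to coenzyme Q, 4 of 12 were higher and 0 lower (33.3% called, median 0.16). The internal NADH dehydrogenase gene ndi1 read 51937 and 57167 against 19658 and 25031 (1.30, SE 0.06, adjusted p = 0.000151), with wild type between at 36536 and 42872. The mitochondrial glycerol-3-phosphate dehydrogenase gene gut2 read 60214 and 63345 against 26041 and 27877 (1.20, SE 0.05), and wild type again lay between at 37336 and 43047. The succinate dehydrogenase genes sdh3 (0.51, SE 0.07) and tim18 (0.19, SE 0.04) were higher too, without a call when slide was left out. Of the 12 members, 7 lay near the highest value, gut2 and tim18 among them, so that their differences are compressed. The sulfide oxidoreductase gene hmt2 and the dihydroorotate dehydrogenase gene ura3 lay near the top of the scale in both strains, as did sdh1, and none of the 3 was called. The genes sdh2 and nde1, which also reached the top of the scale, and cir2, dld2 and put1 differed by 0.06 to 0.22 and were not called. In the tricarboxylic acid cycle 8 of 19 genes were higher and 1 lower (47.4% called, median 0.12), or 3 and 0 without the block. They included kgd2 (0.74, SE 0.05, near the top of the scale on the arrays labelled Δpka1) and lsc2 (0.70, SE 0.05), both with Δppt1 below wild type. Of the 9 called members, wild type lay nearer to Δppt1 in 4 and nearer to the arrays labelled Δpka1 in 5. The gene pdx1 was the member that fell (-0.56, SE 0.10).

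Iron uptake genes had the lowest median of all lists. Of 17 members, 11 were lower on the arrays labelled Δpka1 and 1 was higher (70.6% called, median -0.57), or 8 and 1 without the slide block. Of the 12 called, wild type lay nearer to the arrays labelled Δpka1 in 11, and the list median against wild type was 0.10 for these arrays and 0.82 for Δppt1. Beside str3, the cell surface haem uptake gene shu1 read 1718 and 1462 against 9719 and 11218 (-2.72, SE 0.12). Its wild-type signal was also at background (1737 and 1847). The permease gene fip1 read 15363 and 18686 against 63004 and 59844, and its partner fio1, a multicopper oxidase gene, read 21467 and 25267 against 60921 and 57645 (-1.35, SE 0.09). Both reached the top of the scale in Δppt1. The ferric reductase gene frp2 read 6380 and 6569 against 11793 and 13732 (-0.97, SE 0.08). The member that was higher was the vacuolar iron transporter gene pcl1 (0.44, SE 0.05), named after its value was seen.

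Redox defence genes split into opposing sets. Of 30 members, 16 were lower and 4 higher on the arrays labelled Δpka1 (66.7% called, median -0.24), or 5 and 4 without the slide block. The sulfiredoxin gene srx1, whose product repairs overoxidised peroxiredoxin, read 3836 and 3739 against 24743 and 28888 (-2.82, SE 0.10, adjusted p = 0.000101). Wild type lay near the lower level at 4020 and 4970. The membrane transporter gene caf5 read 10102 and 11383 against 46466 and 59397 (-2.29, SE 0.06), and wild type lay between at 15540 and 20414. The 4 higher genes were the superoxide dismutase gene sod2 (33311 and 40856 against 12317 and 13828, 1.50, SE 0.06), the glutathione peroxidase gene gpx1 (1.20, SE 0.04), the glutathione transferase gene gst3 (1.19, SE 0.08) and the catalase gene ctt1 (1.04, SE 0.09). For sod2 wild type was between the strains at 19012 and 24526. For gpx1 and gst3 it was near Δppt1.

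Sulfur genes with the same sign lay differently beside wild type. Of 21 members, 10 were lower and 3 higher (61.9% called, median -0.11), or 6 and 0 without the slide block. Near the highest value lay 10 of the 21, met17 and met1 among them, so that their differences are compressed. The homocysteine synthase gene met17 read 9482 and 9547 against 65143 and 64261 (-2.77, SE 0.09, adjusted p = 7.93e-05), and wild type was high as well (48531 and 58595). The sulfate transporter gene sul2 read 23074 and 26212 against 49319 and 53159 (-1.06, SE 0.05), while wild type was lower than both strains at 9774 and 11813. The gene met1 (-1.16, SE 0.08) and the F-box gene pof1 (-0.85, SE 0.04), an ubiquitin ligase component of sulfur regulation, were near wild type on the arrays labelled Δpka1 and above it in Δppt1. The gene met16 differed by -0.75 (SE 0.08, adjusted p = 0.00231, and 0.141 without the block).

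**Figure D4:**
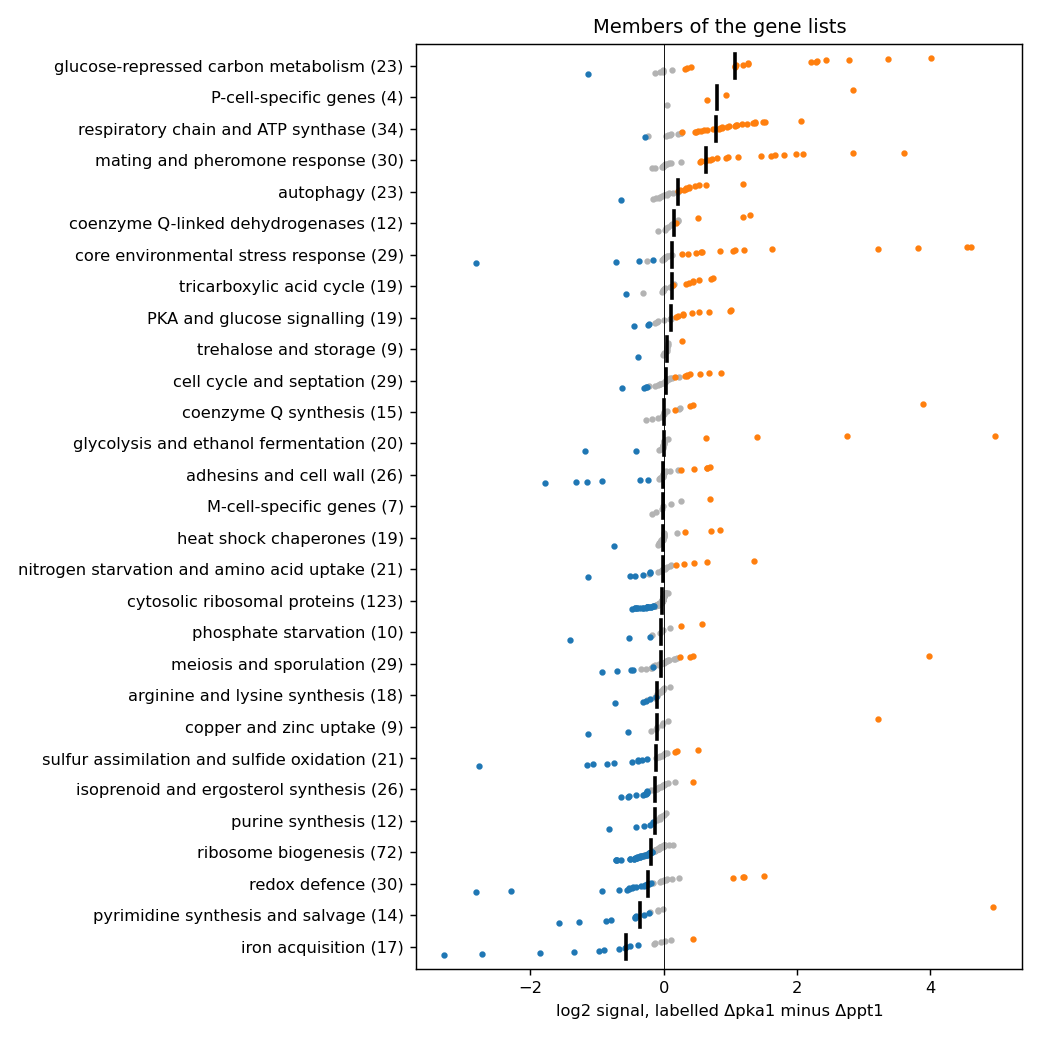
Log2 difference, arrays labelled Δpka1 minus Δppt1, of each measured member (number in brackets) of the 29 gene lists; orange and blue points are members called higher and lower, grey points are not called, and the black bar is the list median. Medians run from -0.57 for iron acquisition to 1.08 for glucose-repressed carbon metabolism.

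Among stress genes, more were called higher than lower on the arrays labelled Δpka1. Of 29 members of the core environmental stress response, 14 were higher and 4 lower (62.1% called, median 0.12), or 10 and 2 without the slide block. With lsd90, mug14 and ddr48, the metallothionein gene zym1 was far higher, at 46573 and 48728 against 5173 and 5052 (3.22, SE 0.13), and wild type lay below both at 2826 and 3974. The difference of srx1 opposed most calls of the list, and its wild-type signal (4020 and 4970) lay near the arrays labelled Δpka1 (3836 and 3739). Of the 18 called members, wild type lay nearer to Δppt1 in 13 and nearer to the arrays labelled Δpka1 in 5. Of 19 heat shock chaperone genes, 3 were higher, hsp16 (0.84, SE 0.06), ssa1 (0.71, SE 0.09) and hsp104 (0.32, SE 0.07), and hsp20 was lower (-0.74, SE 0.11), with 21.1% called and a median of -0.01. Only hsp16 and hsp20 of these were called without the block.

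Among genes of growth the calls were falls of small size, and most members were not called. Of 72 ribosome biogenesis genes, 33 were lower and 0 higher (45.8% called, median -0.19), none by 2-fold, and 3 were called without the slide block. The gene mak16 read 6350 and 6597 against 10722 and 10566 (-0.72, SE 0.09), and rpf2 read 23215 and 26691 against 39234 and 42375 (-0.71, SE 0.05). Both were higher still in wild type, at 11937 and 14081 for mak16 and 41598 and 50426 for rpf2. The list median against wild type was -0.37 for the arrays labelled Δpka1 and -0.19 for Δppt1, so both strains lay below wild type. Of 123 cytosolic ribosomal protein genes 18 were lower and 0 higher (14.6% called, median -0.02), a smaller share than the 22.4% of all genes called lower. None of these was called without the block, and 90 of the 123 lay near the highest value. Purine synthesis had 6 of 12 lower and 0 higher (50% called, median -0.13), led by ade8 (-0.82, SE 0.05). Arginine and lysine synthesis had 5 of 18 lower (27.8%, against 22.4% of all genes called lower, median -0.10), none of them called without the block. The largest of the 5 was car1 (-0.73, SE 0.05), an arginase gene, which serves arginine breakdown and not synthesis. It lay above wild type in both strains, by 0.45 on the arrays labelled Δpka1 and 1.18 in Δppt1.

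The remaining lists held few large differences. In isoprenoid and ergosterol synthesis, which shares precursors with coenzyme Q, 11 of 26 genes were lower and 1 higher (46.2% called, median -0.13), or 1 and 0 without the slide block. The isopentenyl diphosphate isomerase gene idi1 read 23758 and 32247 against 36191 and 44161 (-0.53, SE 0.05, adjusted p = 0.00178, and 0.184 without the block). Wild type read 39465 and 47612, and in all 12 called members it lay nearer to Δppt1. Of 26 adhesin and cell wall genes 6 were lower and 5 higher (42.3% called, against 38.5% of all genes, median 0.00). Beyond 2-fold were pfl3, pfl8 (16901 and 19484 against 44010 and 46593, -1.32, SE 0.06) and gsf2 (-1.16, SE 0.08). In phosphate starvation 3 of 10 were lower and 2 higher (50% called, median -0.04), and the acid phosphatase gene pho1 read 21349 and 26708 against 61410 and 64612 (-1.40, SE 0.09). The upper level of pho1 lay near the highest value, so its fold is compressed. In copper and zinc uptake (33.3% of 9 called, median -0.10), zym1 was higher, and the alcohol dehydrogenase gene adh4 (-1.14, SE 0.10) and the zinc transporter gene zrt1 (-0.54, SE 0.05) were lower.

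In nitrogen starvation and amino acid uptake, 5 of 21 genes were higher and 6 lower (52.4% called, median -0.02), or 2 and 1 without the block. The oligopeptide transporter gene isp4 read 54339 and 55542 against 20599 and 22333 (1.36, SE 0.06), with wild type at 50314 and 53784, so Δppt1 was the strain that was low. The amino acid transporter gene aat1 went the other way, at 23277 and 22417 against 44591 and 56915 (-1.14, SE 0.10), and wild type was high. Autophagy had 11 of 23 genes higher and 1 lower (52.2% called, median 0.21), or 2 and 1 without the block, with atg22 (1.20, SE 0.10) the member beyond 2-fold. In cell cycle and septation 8 of 29 were higher and 4 lower (41.4% called, against 38.5% of all genes, median 0.04). The inhibitor of cyclin-dependent kinase rum1 (0.86, SE 0.09) and the forkhead factor gene sep1 (0.68, SE 0.07) were higher, and the cell surface gene adg1 was lower (-0.62, SE 0.10). In trehalose metabolism and storage 1 of 9 genes was higher, the trehalase gene ntp1 (0.28, SE 0.05), and 1 lower, gpd2 (-0.39, SE 0.04), with 22.2% called, a median of 0.05 and no call without the block.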

How the data were processed

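The deposited array files hold 1 linear signal intensity per gene, which the file headers describe as a summary over that gene's probes. The sources used here do not say how the authors summarised or normalized them. The deposited series table held identical values (largest difference 0). Of 4940 genes, 4922 had 14 probes. Symbols came from a RefSeq table (ASM294v3), which held 4913 of the genes and gave 4147 a symbol. A random-sequence control was left out. The number of arrays limits the precision.

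Values were taken to log2 and fitted with limma 3.58.1 in R 4.3.3 to all 8 arrays, with 1 mean per strain and slide as a block, which leaves 3 degrees of freedom. Tests were moderated and two-sided, with Benjamini-Hochberg adjustment over all genes. The replicate number marks the slide in the titles, and same-slide deviations from strain means correlated in all pairs of strains (r from 0.351 to 0.690; 0.388 for this pair). For slide 2, array positions in titles and deposited names differ for the disruptants, and the labels were followed. On that slide ppt1 was low only in Δppt1 (1910) and cgs1 only in Δcgs1 (1360), which goes with the labels. Signal for pka1 was low on no array of that slide. Cultures were separate, per the labels. The fit was checked on simulated data.

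The strains, the 29 gene lists and the rule for naming genes were chosen with earlier results of these data known. The rule took the targeted genes, the 12 largest rises and falls with a symbol, 3 each without, up to 5 called members per list, and every member of the coenzyme Q and pyrimidine lists. Lists were matched by symbol or systematic name and overlap; 6 members were dropped on matching because the symbol belonged to another or an unsure function. Alternatives were the fit without the block, the 4 arrays alone, matched medians, quantile and cyclic loess normalization, subtraction of the random control, a filter on the dimmest 10% of genes, an intensity trend and each array left out.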

Additional observations from a re-analysis of the deposited data

How the results depend on the processing

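Of 12 alternatives, none turned the direction of any of the 145 named genes that were called, as far as it could fit them (20 of the 169 named genes are missing where the dimmest genes are left out). Another 8, none of them called, had a difference near 0 whose sign turned. Cyclic loess gave 0.023 for SPBC3F6.01c, 0.038 for coq4, 0.0050 for coq5, 0.037 for coq8 and 0.0080 for ura1. Quantile normalization gave 0.0047 for coq4 and 0.0060 for coq8, and coq12 was at -0.0023 with matched medians and -0.0017 with the random control subtracted. With 1 array left out, the differences ran from -0.023 to 0.015 for SPBC3F6.01c, from -0.053 to 0.064 for dlp1, from -0.075 to 0.072 for coq4, from -0.072 to 0.019 for coq5, from -0.069 to 0.039 for coq8, from -0.091 to 0.092 for coq12 and from -0.050 to 0.144 for etp1. The 2-fold counts moved by under 1.5 times in each, between 150 genes (dimmest genes left out, which removed 50 of them) and 242 (random control subtracted). Of the 200 genes, 198 were called in the same direction in all 11 alternatives that fitted every gene. The count without a size limit moved more, and the cause was not tested. Without the replicate block, that is, without pairing by slide, 474 genes were called (249 higher, 225 lower). Of the 145 named genes that were called, 53 then lost their call. With only the 4 arrays of these strains, 1026 were called (470 higher, 556 lower). With 1 array left out, the strain's other array stood alone and was assumed to vary like the rest. The count then ran from 1041 to 1617, from 467 to 794 higher and from 574 to 961 lower. It was 1143 without slide 1 and 1041 without slide 2 of the arrays labelled Δpka1, and the 2-fold counts ran from 195 to 211, from 132 to 148 higher and from 54 to 69 lower. After cyclic loess 1161 were higher and 1156 lower. Scaling moved the median over all genes between -0.03 and 0.01. Signals at background and near the top of the scale limit which folds can be measured.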

Other observations

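Some genes at least 2-fold apart lay side by side in the order of the RefSeq table, in 4 runs of 3 or more measured genes of the same direction. On chromosome I, SPAC869.09, pcm2, mel1 and hry1 were all higher on the arrays labelled Δpka1 (log2 differences from 2.03 to 4.38), 19 genes from the end of the measured genes. A second run of SPAC11D3.18c, dgc1 and hsp3102, with differences from 1.22 to 1.99, lay 43 genes from an end. The run of SPAC5H10.03, SPAC5H10.05c, SPAC5H10.04 and adh4, 46 genes from an end, was lower (from -1.95 to -1.01). On chromosome II, aes1, SPBPB10D8.01 and SPBPB10D8.02c were lower (from -3.38 to -1.42), 13 genes from an end. Apart from mel1, hry1, aes1, adh4, SPAC869.09 and SPBPB10D8.01, these genes were named after their values were seen, and no test of their clustering was made.

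The measured genes up to 2 places from the disrupted loci, in the order of the RefSeq table, were read too. Around ppt1, cmr2 and tif52 were not called. The genes alg10 (-0.36, SE 0.05, adjusted p = 0.00532) and mug64 were lower on the arrays labelled Δpka1 (-0.52, SE 0.04, adjusted p = 0.001), with mug64 at 20873 and 25828 against 30973 and 35635 and wild type at 33618 and 40856. Around pka1, cut4 was higher (0.28, SE 0.05, adjusted p = 0.0125), and mug2, plg7 and tho4 were not called. Beside the native ura4 locus, mug135 was higher (0.30, SE 0.05, adjusted p = 0.0101) and pmp20 lower (-0.41, SE 0.04, adjusted p = 0.00137). At 2 places away, SPCC330.07c was lower (-0.15, SE 0.04), and SPCC330.03c on the other side read 2903 and 2027 on the arrays labelled Δpka1 and 11029 and 12505 in Δppt1 (-2.27, SE 0.19, adjusted p = 0.000929). In wild type it read 9544 and 11356, and in Δcgs1 18796 and 17872, the highest of the 4 strains.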
